A study of Mus musculus with 4 samples.

Results

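Among 5913 cultured mouse muscle stem cells, 589 held high levels of both Top2a, the topoisomerase that untangles sister chromatids, and Ube2c, a ubiquitin-conjugating enzyme of the anaphase-promoting complex. They were chosen by these 2 genes alone, as cells with Top2a of at least 7 and Ube2c of at least 6 on the deposited log2(CPM + 1) scale, where CPM is a gene's molecule count scaled to the same total in every cell. The thresholds equal 127 CPM for Top2a and 63 CPM for Ube2c. The cells were wild type, of the C57BL/6 strain, labelled young or aged, and spent 7 days on polydimethylsiloxane, a silicone, of 12 kPa, called soft, or 29 kPa, called stiff. The 4 groups shared genotype, serum-containing medium and culture time, and values given in fours follow the order young soft, young stiff, aged soft, aged stiff. Each group is 1 library, so no difference has a replicate check, no test or p-value is given, and all intervals are 95% intervals that cover counting error only. The labels used here give neither an age in months nor the number of mice behind a library. By its title, the study is about RNA decay and the effect of matrix stiffness on the fate of aged muscle stem cells.

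A cell that has copied its DNA passes through G2, when cyclin B builds up and binds the kinase Cdk1, into mitosis, when kinetochores attach the condensed chromosomes to spindle microtubules. The anaphase-promoting complex, with Cdc20 as its activator and Ube2c among its ubiquitin-conjugating enzymes, then marks cyclin B for destruction so that the cell can leave mitosis. In muscle, satellite cells marked by Pax7 enter the cycle as Myod1-positive myoblasts, and Myog with Cdkn1a marks exit from the cycle toward differentiation.

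The gate held 226 of 1360 young soft cells (16.6%, exact Clopper-Pearson interval 14.7 to 18.7) and 229 of 1481 young stiff cells (15.5%, 13.7 to 17.4). It held 67 of 1333 aged soft cells (5.03%, 3.92 to 6.34) and 67 of 1739 aged stiff cells (3.85%, 3.0 to 4.87). The gated share was lower in both aged libraries than in both young ones, with intervals that did not overlap, while soft and stiff overlapped within each age. Cells outside the gate with Pcna and Mcm4, 2 genes of DNA replication, both at 6 or more are called the S phase set. They made up 8.46% (7.03 to 10.1), 5.40% (4.31 to 6.68), 1.58% (0.978 to 2.40) and 1.55% (1.03 to 2.25). Here the soft and stiff intervals did not overlap in young cells. Cells outside the gate with Ckm, the creatine kinase of differentiated muscle, at 6 or more made up 15%, 15%, 37.7% and 43.2%. The aged soft (35.1 to 40.4) and aged stiff (40.8 to 45.6) intervals of these Ckm shares did not overlap. Where the gated share was low, the share of Ckm cells was high. Libraries held 44005026 to 68245350 UMIs (molecules counted once each), and the median cell of a library 28604 to 37067. The 1 barcode that libraries shared was not gated.

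**Figure D1:**
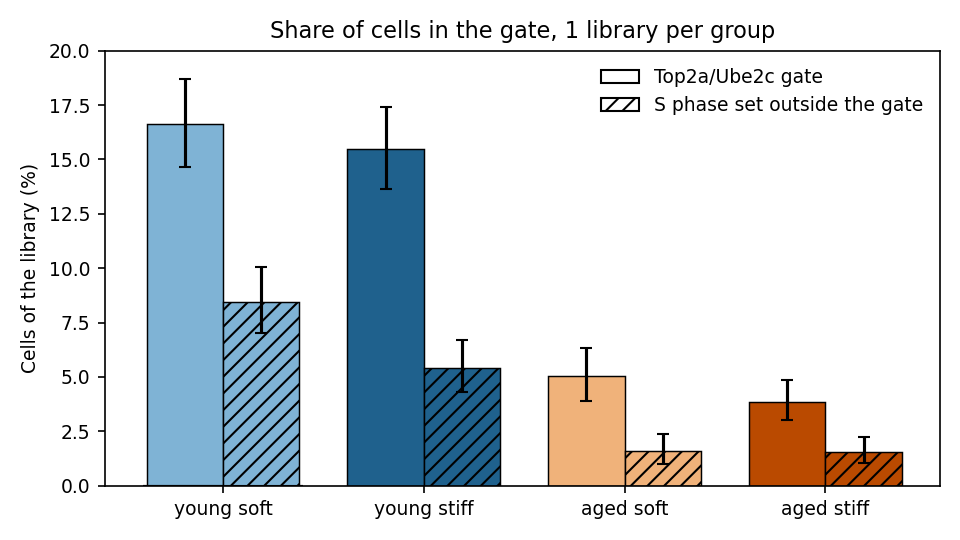
Share of each library's cells (%) in the gate (plain bars) and in the S phase set outside it (hatched bars), with exact 95% binomial intervals as error bars. The gate holds 16.6% and 15.5% of the young soft and stiff libraries and 5.03% and 3.85% of the aged ones.

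The median gated cell held 37379, 31743, 30875 and 33628 UMIs, against 35173, 28028.5, 33466 and 37314 outside the gate. It carried 66, 61, 48 and 54 Top2a UMIs and 18, 16, 26 and 19 Ube2c UMIs. Doublets were not called, and 3, 4, 0 and 0 gated cells exceeded 2 times their library's median UMIs. Just inside the thresholds lay 39, 32, 4 and 12 cells with Ube2c between 6 and 7. Just outside, with Top2a in range, lay 27, 18, 12 and 9 cells with Ube2c between 5 and 6. Cells thus lay close to the threshold on both sides in every library.

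The label of G2 or mitosis held for most gated cells and not for all of them. Mki67, the proliferation antigen, reached 6 in 575 of the 589 cells (97.6%) and Cdk1 in 577 (98.0%). Ccnb1, which encodes cyclin B1, reached 6 in 456 (77.4%), Cdc20 in 451 (76.6%) and Plk1, a kinase of mitotic entry, in 427 (72.5%). All of Ccnb1, Cdc20 and Plk1 reached 6 in 347 cells (58.9%). In 48 cells (8.15%) all 3 stayed under 6, and 41 of these had Pcna and Mcm4 both at 6 or more. Over the whole gate, 296 cells (50.3%) had both replication genes at 6 or more. The cells thus ranged from replication gene levels to mitotic ones, and they are called gated cells below.

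They carried the myoblast marker Myod1 at 6 or more in 564 of 589 cells (95.8%). Markers of endothelial, immune and glial cells were low. The 3 endothelial markers found summed to at most 0.31 CPM and the 6 immune markers to at most 8.40 CPM, with Ptprc at 0 in all 4 libraries. The 4 Schwann or glial markers summed to at most 3.67 CPM. Fibroblast markers summed to 431 to 472 CPM, of which Col3a1 gave 290.1 to 410.4, Ly6a 30.2, 39.1, 144.7 and 99.4, and Col1a1 3.25 to 17.1, while Pdgfra stayed under 1 CPM and Dcn at or under 1.74 CPM. Smooth muscle markers summed to 1820.2 to 2674 CPM, nearly all Acta2, with Myh11 at 0. Outside the gate these 2 sums were 109 to 243 and 1476 to 1743 CPM, and their part in the results below was not tested.

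Regulatory sequence is shown for 7 genes that the gated cells carried at high level, because genes of G2 and mitosis are known to share a promoter element, the cell cycle genes homology region (CHR, letters TTTGAA), often downstream of a CCAAT box bound by NF-Y. Each line gives the 130 bases just before the transcription start, 5′ to 3′ on the gene's strand, from RefSeq on build GRCm38.p6, with CHR and CCAAT matches on either strand in capitals (TTCAAA and ATTGG are the same letters read from the other strand). They lie at chr11:99024190-99024319 (Top2a, minus strand), chr2:164769799-164769928 (Ube2c, plus), chr10:69352913-69353042 (Cdk1, minus), chr19:37376252-37376381 (Kif11, plus), chr7:80294346-80294475 (Prc1, plus), chr4:118437344-118437473 (Cdc20, minus) and chr2:119618168-119618297 (Nusap1, plus).
Top2a: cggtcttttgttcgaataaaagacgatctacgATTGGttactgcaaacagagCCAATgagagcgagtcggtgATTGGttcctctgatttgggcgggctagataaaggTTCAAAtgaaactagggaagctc
Ube2c: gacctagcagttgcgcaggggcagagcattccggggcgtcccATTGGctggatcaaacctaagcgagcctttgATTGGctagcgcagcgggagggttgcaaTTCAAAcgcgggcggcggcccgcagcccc
Cdk1: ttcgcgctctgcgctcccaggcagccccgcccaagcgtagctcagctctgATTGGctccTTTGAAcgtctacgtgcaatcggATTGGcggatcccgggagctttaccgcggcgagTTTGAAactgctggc
Kif11: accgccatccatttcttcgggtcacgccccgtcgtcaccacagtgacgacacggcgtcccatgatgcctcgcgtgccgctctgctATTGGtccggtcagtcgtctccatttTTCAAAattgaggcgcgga
Prc1: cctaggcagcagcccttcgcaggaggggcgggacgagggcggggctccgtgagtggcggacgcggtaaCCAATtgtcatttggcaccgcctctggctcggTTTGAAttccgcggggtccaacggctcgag
Cdc20: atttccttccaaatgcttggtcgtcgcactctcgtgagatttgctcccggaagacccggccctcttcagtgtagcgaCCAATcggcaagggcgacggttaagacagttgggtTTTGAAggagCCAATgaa
Nusap1: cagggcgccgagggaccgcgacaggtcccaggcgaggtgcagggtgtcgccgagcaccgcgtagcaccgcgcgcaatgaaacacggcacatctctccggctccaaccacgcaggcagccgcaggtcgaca
The first 6 hold a CCAAT box 26 to 35 bases before a CHR match, and the Nusap1 stretch holds neither.

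The 30 leading genes are those with the highest mean ratios to other cells, named in part below, and 23 of them had windows. Over windows from 250 bases before to 50 after each start, CHR letters were found in 18 of their 25 windows (72%). CHR letters were found in 17.9% of all 32851 windows. CCAAT letters were found in 84% of the leading genes' windows against 37.4% of all. A CCAAT box 20 to 40 bases before a CHR match, a range chosen after the values were seen, stood in 44% of the leading windows and in 0.895% of all. Of windows of the genes higher in gated cells, 28.7% held CHR letters, against 12.6% for the genes that were lower, 14.7% for the S phase list and 0% for the sarcomere list. Of the sets counted, CHR letters were most frequent in the leading genes and in the spindle list (75%), and a match is a description of letters, not of binding.

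Gated cells were set against all other cells of their own library. The rule used this contrast, so the values describe and nothing is read from their counts. Levels are means over cells in CPM and ratios are log2 ratios of mean CPM plus 5, averaged over the 4 libraries with their SD. Of 6207 genes with at least 20 CPM, 573 (9.23%) were at least 2-fold higher in gated cells in all 4 libraries and 375 (6.04%) at least 2-fold lower. The median log2 ratio over all genes was 0.22.

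Among the 30 genes with the highest mean ratios, Top2a averaged 1721, 1904, 1650.0 and 1701 CPM in gated cells against 47.5, 40, 13.8 and 9.18 CPM outside. Nusap1, which bundles spindle microtubules, averaged 389, 458, 423 and 442 CPM against 4.57, 5.31, 1.77 and 1.73 (log2 ratio 5.72, SD 0.35). Prc1, which cross-links the central spindle, averaged 568, 598, 627 and 565 CPM against 13.9, 10.9, 5.70 and 5.02 (5.47, SD 0.47). For these 3 genes both aged libraries were lower than both young libraries outside the gate. Cdk1 (4.90, SD 0.63), cyclin A2 gene Ccna2 (4.77, SD 0.57), the kinetochore motor gene Cenpe (4.71, SD 0.40), the spindle motor gene Kif11 (4.64, SD 0.36) and the Aurora kinase gene Aurkb (4.64, SD 0.37) were also among the 30. So were 2 genes of DNA replication, the linker histone gene Hist1h1b (4.89, SD 0.74) and Pclaf (4.29, SD 0.90), of which Pclaf shares 20% of its 30-base words with other genes.

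Among the 15 genes with the lowest mean ratios, Myl1, a myosin light chain gene, averaged 153, 148, 41.9 and 303 CPM in gated cells against 7974, 9136, 12269 and 14155 CPM outside (log2 ratio −6.28, SD 1.18). Mef2c, a transcription factor gene of differentiating muscle, averaged 22.1, 18.5, 4.54 and 36.4 CPM against 1113 to 1188 (−5.71, SD 0.85). All 30 measured sarcomere genes were at least 2-fold lower in all 4 libraries (median −4.11), and 11 of 18 genes of commitment and fusion were (median −2.02). The share of differentiated cells outside the gate differed between libraries, as the Ckm shares show.

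A closer comparison was with 703 undifferentiated cells outside the cycle, those with Pax7 at 6 or more, Top2a and Mki67 under 5 and no place in the S phase set. Of 6099 genes, 391 (6.41%) were at least 2-fold higher in gated cells in all 4 libraries and 29 (0.475%) at least 2-fold lower, with a median of 0.00 over all genes. The Pax7 cells were chosen partly by Top2a and Mki67, so cycle genes differ by construction. Their median depth was lower, at 26647, 20777.5, 22204.5 and 23428.5 UMIs.

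The lists of the cycle, given in order of their roles, differed in how many members were higher. All 12 measured genes of cyclins, Cdk1 and their regulators were at least 2-fold higher (median log2 ratio 2.76), as were all 10 mitotic kinases (4.23). Of kinetochore and centromere genes 24 of 25 were (3.91), with Zwint at 0.17. Of spindle motors and microtubule regulators 25 of 26 were (4.03), with Numa1 at 0.14. Of condensin, topoisomerase and chromatin genes 19 of 21 were (3.26). Top2b, the topoisomerase copy that non-dividing cells also use, stood at −0.15 beside 8.26 for Top2a. Of genes of the anaphase-promoting complex and mitotic exit 7 of 17 were (0.92), among them Ube2c at 6.14 and Cdc20 at 4.84, while Pttg1, the securin gene, stood at −0.34. Of 12 cytokinesis genes 8 were (2.95), with the septin gene Sept9 at −0.12. Of 9 genes of G1 cyclins, Cdk4, Cdk6 and pocket proteins 2 were at least 2-fold higher and 1, the cyclin gene Ccnd2 at −1.84, was lower (median 0.50). All 35 S phase genes were higher (2.83).

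**Figure D2:**
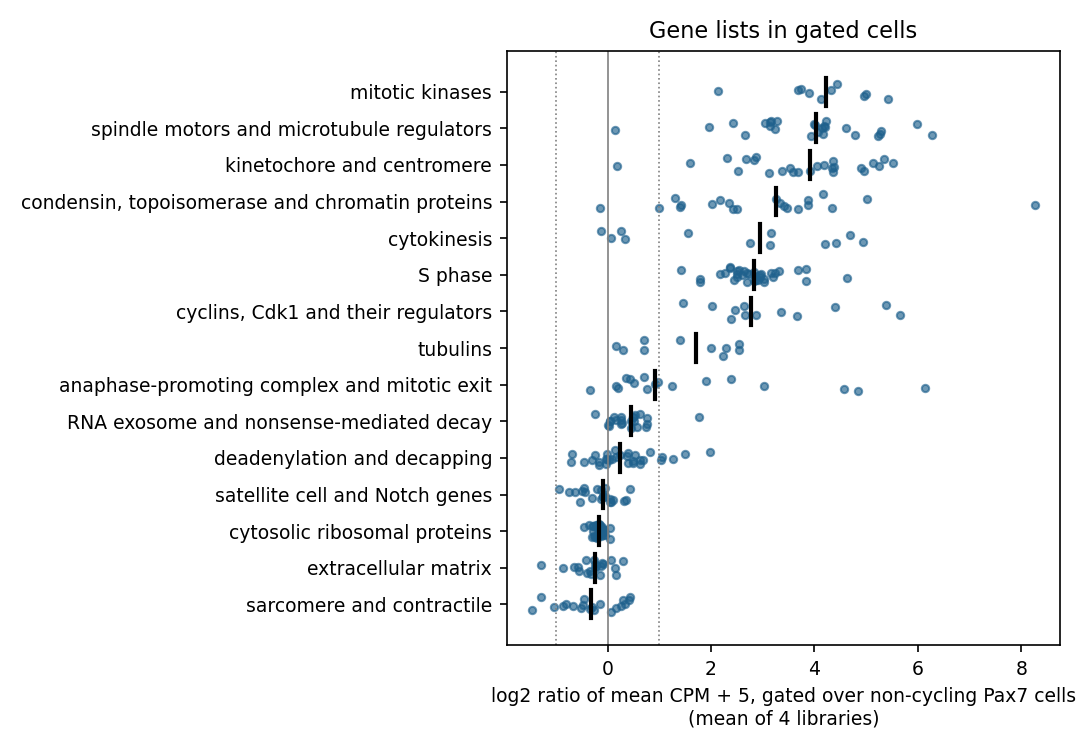
Log2 ratios of mean CPM plus 5, gated over non-cycling Pax7 cells, mean of the 4 libraries, for the members of each list, each point a gene. Lists of mitosis and S phase lie to the right (medians 4.23 for mitotic kinases and 2.83 for S phase), while satellite cell genes lie around 0 (median −0.10).

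Some genes outside the core machinery were higher with them. Tuba1b, an alpha tubulin gene, averaged 1457, 1610, 1483 and 1445 CPM against 263, 272, 253 and 226 in the Pax7 cells (log2 ratio 2.54, SD 0.08), and 6 of 10 tubulin genes were at least 2-fold higher. Cdkn2d, which encodes the Cdk4 and Cdk6 inhibitor p19, averaged 178, 190.1, 202 and 211 CPM against 17.2, 15.5, 27.4 and 25.4 (2.95, SD 0.25). It was the 1 of 15 measured genes of Cdk inhibitors and p53 targets that was at least 2-fold higher. Rbl1, the pocket protein gene p107, averaged 35.4 to 40.3 CPM against 1.69 to 2.39 (2.65, SD 0.14).

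Genes of RNA decay, the process in the study's title, are given by list, where 50.5% of all measured genes had ratios above 0 and 6.41% were at least 2-fold higher. Of 23 genes of the RNA exosome and nonsense-mediated decay, 22 had ratios above 0 (median 0.46) and 1 was at least 2-fold higher. That gene, Exosc8, an exosome ring subunit, averaged 120, 124, 113 and 123 CPM against 31.3, 30.5, 29.0 and 36.9 in the Pax7 cells (1.76, SD 0.11). Of 31 genes of deadenylation and decapping, 20 were above 0 (median 0.24) and 3 at least 2-fold higher, with Lsm2, part of the Lsm ring, at 228, 231, 221 and 223 CPM against 59.4, 56.5, 50.1 and 49.2 (1.97, SD 0.10). Of 13 AU-rich element binding proteins 11 were above 0 (median 0.45) and 0 at least 2-fold higher. Exosc8 and Lsm2 lay nearer the S phase set, at 0.26 and 0.45.

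Among the 29 lower genes, Apoe was furthest down. Apoe, the lipid carrier apolipoprotein E, averaged 131, 64.8, 13.2 and 29.8 CPM against 871, 736, 205 and 343 (−3.24, SD 0.38). Mxd4, a repressor that competes with Myc for Max, averaged 38.2, 40.5, 46.9 and 35.0 CPM against 162, 176, 162 and 174 (−1.95, SD 0.20). Ccnd2, cyclin D2, averaged 13.4, 15.3, 7.35 and 12.8 CPM against 42.7, 43.8, 57.2 and 87.3 (−1.84, SD 0.60). Each gene was lower in all 4 libraries, with Mxd4 the most even. Kdm5b, a histone H3K4 demethylase gene, stood at −2.21 (SD 0.40). The nuclear RNA Neat1 averaged 311, 342, 416 and 293 CPM against 984, 899, 1005 and 1194 (−1.58, SD 0.33), and Igfbp5, a binding protein of insulin-like growth factors, 812, 724, 2036 and 1065 against 1966, 2102, 4608 and 4601 (−1.52, SD 0.42).

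Among myogenic genes, none of 23 satellite cell and Notch genes was at least 2-fold apart (median −0.10), nor was any of 20 measured sarcomere genes (−0.32) or of 14 genes of commitment and fusion (−0.02). Of all 6099 genes 6.41% were at least 2-fold higher and 0.475% lower. Members still differed in their ratios, from −0.93 for Vcam1 to 0.44 for Notch1 in the first list and from −1.26 for Mef2c to 0.54 for Myog in the third. Pax7 itself averaged 125, 125, 151 and 127 CPM, against 196, 205, 185 and 186 in cells chosen for it and 62.3, 55.4, 36.0 and 28.3 in all other cells. After thinning every cell to 10000 UMIs, 60.2%, 65.9%, 74.6% and 58.2% of gated cells had a Pax7 UMI (90.3%, 91.3%, 91.0% and 86.6% before thinning). In the differentiated Ckm cells, where little Pax7 is known to be made, these shares after thinning came to 4.41%, 3.6%, 3.78% and 3.07%. Ribosomal protein genes were slightly lower than in the Pax7 cells in 32 of 34 cases (median −0.17), where 49.5% of all measured genes were lower.

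Against the S phase set of 243 cells, which was chosen by Pcna and Mcm4, 110 of 5930 genes (1.85%) were at least 2-fold higher in gated cells in all 4 libraries and 3 (0.0506%) at least 2-fold lower. The 3 are replication or repair genes of early S phase, Ung (−1.88), Cdc6 (−1.50) and Dtl (−1.26), named after their values were seen. Of spindle genes 24 of 26 were at least 2-fold higher (median 2.22) and of mitotic kinases 9 of 10 (1.93). Ccnb1 averaged 252, 283, 337 and 248 CPM in gated cells against 21.3, 19.2, 27.9 and 17.3 in the S phase set (log2 ratio 3.44, SD 0.13). Cdk1 was already at 152, 174, 169.5 and 179.7 CPM there against 543, 579, 637 and 594 in the gate (1.77, SD 0.09). Cdkn2d averaged 28.3, 25, 40.9 and 32.2 CPM in the S phase set (gate over S phase set 2.47, SD 0.22). These levels were somewhat above those of the Pax7 cells in all 4 libraries. None of the 37 S phase genes measured was at least 2-fold higher in gated cells.

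Within the gate, cells were ordered by Ccnb1, and Spearman's rho with it was averaged over the 4 libraries for 3324 genes, as a description over 226, 229, 67 and 67 cells. The median rho was 0.02 and the central 95% ran from −0.28 to 0.36. The highest values after Ube2c (0.83), a gene of the rule, were those of the kinetochore gene Cenpf (0.81), of Arl6ip1 (0.81), of the tubulin gene Tubb4b (0.79), of the centromeric histone gene Cenpa (0.79) and of Cdc20 (0.78). The lowest were those of replication genes, Mcm6 (−0.66), Ccne2 (−0.65) and Pcna (−0.63). All 33 S phase genes were below 0 (median −0.45). All 22 spindle genes (0.51) and all 8 genes ranked from the list of cyclins, Cdk1 and their regulators (0.45) were above. All 34 ribosomal protein genes were below 0 as well, by less (median −0.13). Values share each cell's depth, whose own rho with Ccnb1 was 0.40, 0.26, 0.04 and 0.32.

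**Figure D3:**
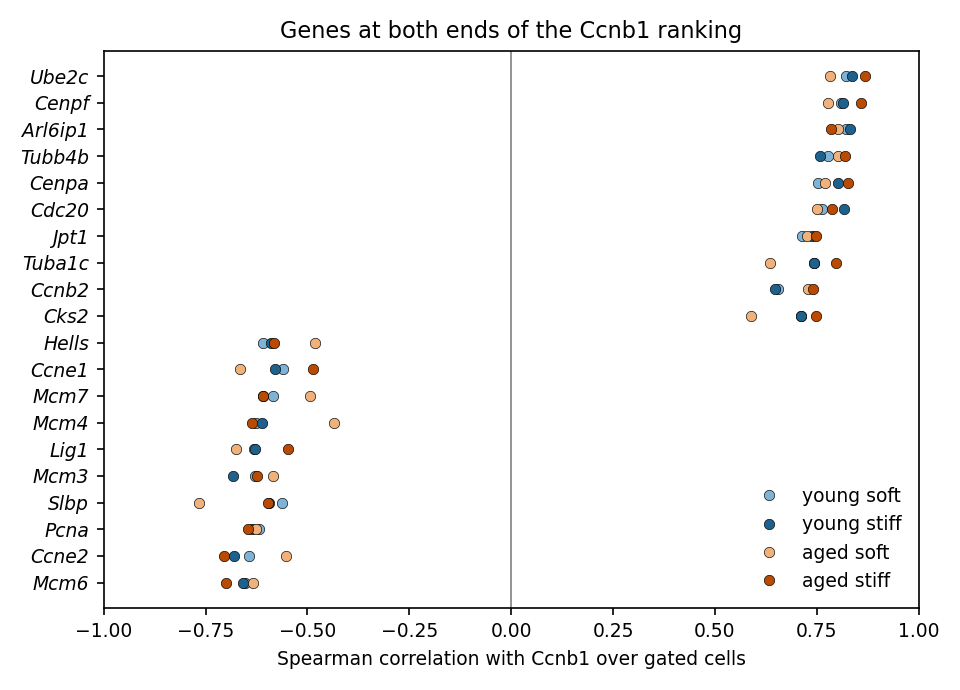
Spearman's rho with Ccnb1 over gated cells, in each library (points) for the 10 genes with the highest and the 10 with the lowest mean. Mitotic genes such as Cenpf (mean 0.81) and replication genes such as Mcm6 (mean −0.66) lie on opposite sides of 0 in all 4 libraries.

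**Figure D4:**
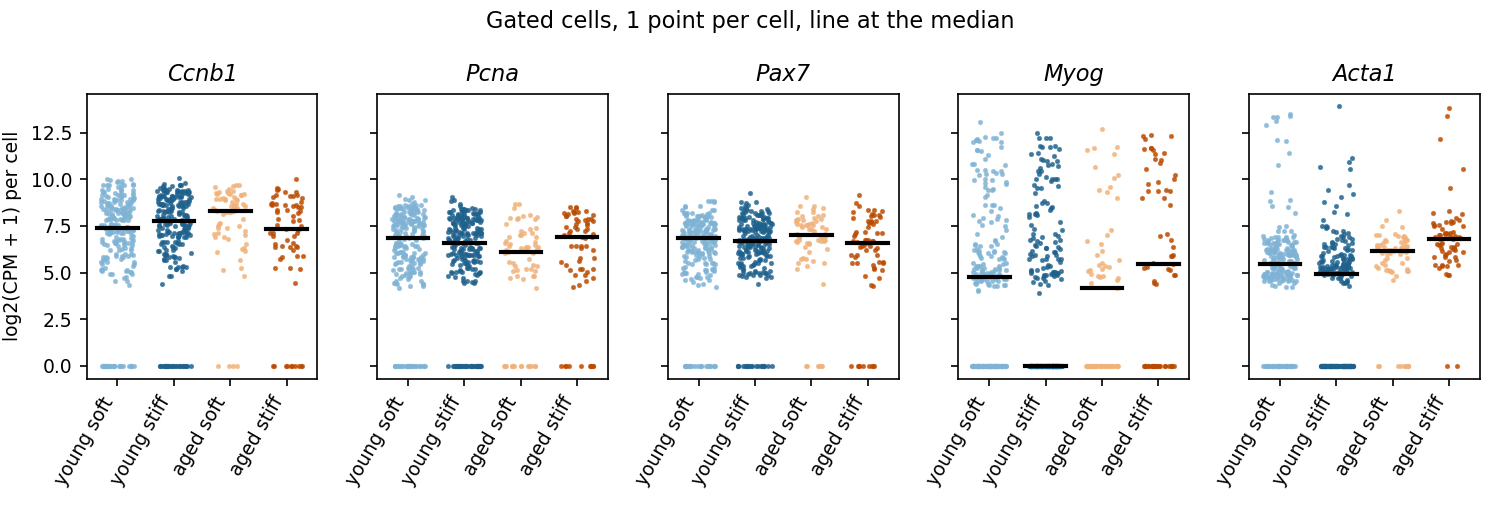
Values of single gated cells, log2(CPM + 1), by library, each point a cell. The panels are Ccnb1, Pcna, Pax7, Myog and Acta1, with a line at the median, and Myog reached 9 in 40, 34, 11 and 22 cells and Acta1 in 11, 9, 0 and 5, with Myog at 0 in 88, 118, 33 and 24 cells.

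Myog averaged 463, 357, 394 and 815 CPM in gated cells, yet its median was 26.3, 0, 16.9 and 42.6 CPM, and the highest 5% of cells held 56.8%, 50.7%, 51.8% and 36.0% of its UMIs. Myog reached 9 on the log2 scale in 40, 34, 11 and 22 gated cells (17.7%, 14.8%, 16.4% and 32.8%), and 88 of the 589 cells (14.9%) had Pax7 and Myog both at 6 or more. Cdkn1a, the p21 inhibitor gene, was spread more evenly, with medians of 210.1, 200.03, 315 and 410.1 CPM. Acta1, skeletal actin, had medians of 43.6, 29.2, 71.3 and 111 CPM. In young soft, young stiff and aged stiff the highest 5% of cells held 84.7%, 79.8% and 83.9% of its UMIs, and in aged soft 14.8%.

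Between the 4 libraries, gated cells differed in few genes. Counts cover genes with at least 50 CPM and a ratio of at least 2-fold between 2 libraries. In young cells, stiff over soft gave 0 of 3454 genes higher (0%) and 4 lower (0.116%), among them Hist1h2ap, Acta1 and Hist1h2ae. In aged cells it gave 20 of 3489 higher (0.573%) and 3 lower (0.086%), namely Cdkn1c, of whose aged soft UMIs 3 cells held 94.2%, Ccl7 and Etv1. Aged over young gave 35 of 3564 higher (0.982%) and 21 lower (0.589%) on soft, and 37 of 3535 higher (1.05%) and 12 lower (0.339%) on stiff. Each library enters 2 of these 4 comparisons, and the soft and stiff age comparisons share none.

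On the 2 substrates, 13 genes were at least 2-fold higher in aged gated cells both times, 37.1% of the soft and 35.1% of the stiff calls. Another 6 genes were at least 2-fold apart in opposite directions, among them Acta1 and Hist1h2ap. Of 3405 genes measured on both substrates, 2337 had ratios of the same sign. Gpx3, the secreted glutathione peroxidase, averaged 331, 298, 1136.5 and 875 CPM (ratio of summed counts 3.34, exact interval 3.16 to 3.53 on soft, and 2.75, 2.58 to 2.93 on stiff). Myl9, a myosin regulatory light chain gene, averaged 128, 139, 412 and 403 CPM. Rbm3, a cold-induced RNA-binding protein gene, averaged 536, 481, 1218 and 1177 CPM. Both aged libraries lay above both young ones for each of these genes. The same genes were also higher in aged cells outside the gate, at 1.59 and 1.33 for Gpx3, 1.03 and 0.63 for Myl9, and 0.94 and 1.05 for Rbm3 (log2 ratios, soft and stiff). The interferon-induced Ifitm3 (1.51 and 1.16), the surface antigen gene Ly6a (2.09 and 1.24, with 27% of its words shared with other genes) and the cytokine signalling inhibitor Socs3 (1.30 and 1.5) were among the 13.

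Hist1h2bc, a histone H2B gene, averaged 46.1, 38.3, 150 and 111 CPM in gated cells (log2 ratios 1.60 and 1.42). Outside the gate its age ratios were 0.05 and 0.00, and in the Pax7 cells −0.06 and −0.29. The age difference in this gene was thus present inside the gate and near 0 outside it, a difference that was not tested.

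Lower in aged gated cells on both substrates were 6 genes, 28.6% of the soft and 50% of the stiff calls. Col6a3, a chain of the matrix protein collagen VI, averaged 140, 182, 47.8 and 32.5 CPM (−1.46 and −2.32). Apoe stood at −2.90 and −1.0 and Igfbp4 at −1.07 and −1.24. Lrpap1, a chaperone of lipoprotein receptors, averaged 133.7, 145, 62.4 and 66.4 CPM (−1.04 and −1.07). These genes were lower in aged cells outside the gate as well. Col6a3 stood there at −1.72 and −2.04, Apoe at −1.89 and −1.85, Igfbp4 at −0.99 and −1.33. Lrpap1 stood there at −0.55 and −0.63. Ctrb1, also among the 6 (−1.03 and −1.45), stood at 0.36 and −0.14 in all cells outside the gate. In the Pax7 cells alone it stood at −1.02 and −0.90, so its lower level was not particular to gated cells. The extracellular matrix list had a median of −0.39 on soft and −0.32 on stiff, and 11 of 12 genes of the unfolded protein response were below 0 on each substrate (−0.30 and −0.35), where 52.5% of all measured genes on soft and 52.7% on stiff were. In all cells outside the gate the medians were −0.99 and −1.28 for the matrix list and −0.73 on both substrates for the unfolded protein response. Those cells also differed between libraries in their share of Ckm cells. In the Pax7 cells the medians were −0.59 and −0.53 for the matrix list and −0.52 and −0.58 for the unfolded protein response.

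**Figure D5:**
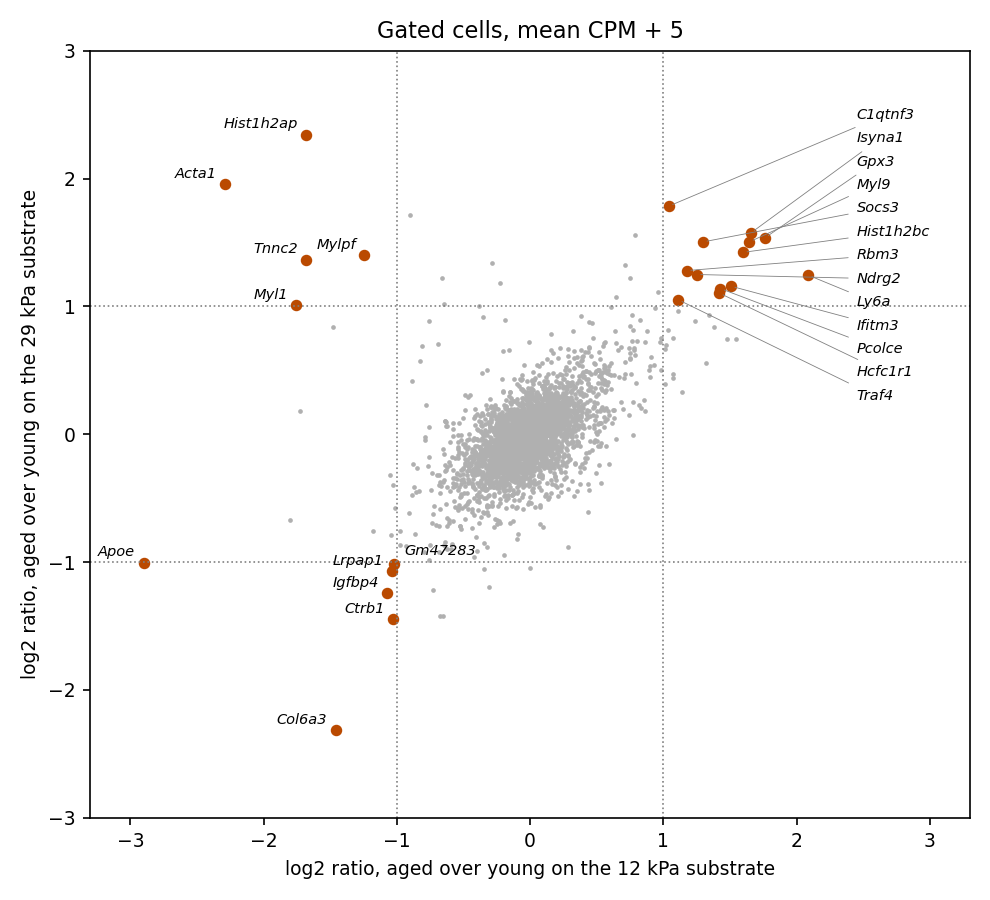
Log2 ratio of mean CPM plus 5, aged over young, among gated cells on soft (x axis) and stiff (y axis), each point a gene. The 13 genes at least 2-fold higher on both lie at the upper right and the 6 lower on both at the lower left, while Acta1 and Hist1h2ap lie in the upper left at −2.29 and 1.96 and at −1.68 and 2.34. Without the highest 5% of cells Acta1 stood at 0.23 and 1.73.

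No gene of the cyclin, mitotic kinase, kinetochore, spindle or S phase lists was 2-fold apart between libraries inside the gate. Of all genes, at most 1.05% were 2-fold higher and 0.589% lower in any comparison. Cells entered the gate by high Top2a and Ube2c, and Ube2c followed Ccnb1 within it (rho 0.83). The rule thus limits how far mitotic genes can differ between libraries here. The mitotic kinases had medians of 0.14 on soft and −0.06 on stiff for aged over young, against −0.56 and −0.42 outside the gate. Cdc20 averaged 239, 273, 376 and 266 CPM, Plk1 155, 189, 236 and 161, and Ccnb1 252, 283, 337 and 248, each highest in aged soft. Ccnb1, Cdc20 and Plk1 all reached 6 in 53.1% (46.4 to 59.7), 62.4% (55.8 to 68.7), 71.6% (59.3 to 82.0) and 53.7% (41.1 to 66.0) of gated cells. The aged soft interval overlapped those of the other 3 libraries, that of young soft only at its edge. The S phase list was lower in aged soft than in young soft for 31 of 34 genes (median −0.35) and higher in aged stiff than in aged soft for 32 of 34 (median 0.31). Of all measured genes, 52.5% were lower in the first of these comparisons and 48.4% higher in the second. Both comparisons rest on the same 67 aged soft cells.

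Myog, Cdkn1a and Acta1 had their highest mean levels in aged stiff gated cells. Myog was 2.44 times its aged soft level in summed counts (exact interval 2.25 to 2.65, log2 ratio 1.04) against −0.11 on the log2 scale outside the gate, and its log2 ratio to young stiff was 1.18. In the S phase set Myog averaged 133, 268, 86.8 and 152 CPM, again higher in aged stiff than in aged soft but highest in young stiff. Cdkn1a averaged 337, 332, 376 and 575 CPM (0.61 over aged soft and 0.79 over young stiff). In the S phase set Cdkn1a was also highest in aged stiff, at 111, 136, 207 and 224 CPM. After thinning, 46.9%, 45.4%, 65.5% and 73.1% of the Pax7 cells had a Cdkn1a UMI. An Acta1 UMI was present in 38.3%, 28.8%, 48.3% and 72.4% of them. The sarcomere list had a median of 0.91 over aged soft. Leaving out the highest 5% of cells for each gene, a choice made after seeing the data, gave 0.46, and Acta1 went from 2.92 to 0.91 and Myog from 1.04 to 1.73. The 5 highest aged stiff cells held 41.7% of the summed sarcomere CPM, against 16.3% in aged soft. The median gated cell did not differ, with a summed sarcomere level of 4801 CPM in aged stiff and 4802 CPM in aged soft. The shares of cells with Myog at 9 or more, 32.8% (21.8 to 45.4) and 16.4% (8.49 to 27.5), have overlapping intervals. Igfbp5 was lower in aged stiff than in aged soft (−0.93). Ccl7, a chemokine gene, averaged 3.5 CPM in young soft and 62.4 in aged soft (ratio of summed counts 17.6, exact interval 11.9 to 26.7) and 28.5 in aged stiff.

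The lists of RNA decay had medians near 0 between libraries inside the gate, with members on both sides. The medians of the deadenylation and decapping list lay between −0.01 and 0.04 in the 4 comparisons, those of the exosome and nonsense-mediated decay list between −0.09 and 0.03, and those of the AU-rich element binding proteins between −0.07 and −0.04. Single members reached 0.87 for Btg2 and −0.82 for Exosc2, both for aged over young on stiff, and 0 members were 2-fold apart. Of all genes, at most 1.05% were 2-fold higher and 0.589% lower in any comparison, so a count of 0 is not particular to these lists. The targets of YAP and TAZ, a pathway known to respond to stiffness, had medians of 0.03 for stiff over soft in young cells and 0.07 in aged cells. At least 2-fold apart were 0 of 11 and 0 of 10 of them. Of all genes, 0% and 0.573% were 2-fold higher in these comparisons and 0.116% and 0.086% lower, so these counts are not particular to the list.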

How the data were processed

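Single-cell RNA libraries came from the 10x 3' v3 kit, per the labels' protocols. The submitters' processing notes list Cell Ranger (version 6.1.2) and Partek; the aligner settings and genome build are not given in the sources used here. The deposited values are log2(CPM + 1) per cell, as tested on the files. UMI counts were recovered by taking a cell's most frequent value above 0 as 1 UMI, and 99.9% of values came out whole within 0.05. No further cells were removed, and doublets were not called.

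The gate, the comparison sets and the gene lists were chosen with earlier results of these data known. Ratios are log2 of mean CPM plus 5, with a minimum of 20 CPM (50 inside the gate). Genes were named from the 30 highest and 15 lowest against other cells and the 10 highest and 15 lowest against Pax7 cells. Others came from the 8 at each end of each library comparison, up to 6 per list, and the 10 at each end by correlation with Ccnb1. A fixed set of cycle and myogenic genes was used as well. Unnamed gene models were left out of these rankings. Shares were thinned to 10000 UMIs where stated. Genes sharing 20% or more of the 30-base words in their last 500 bases with other genes are uncertain. Alternatives changed the pseudocount, minimum, scaling, gate thresholds, cell filter and libraries used. Recovery was tested on simulated data. The values of 1 gene are not reported here, though the counts of 2-fold genes include it. Python 3.11.15, numpy 2.4.6, scipy 1.17.1, pandas 2.3.3 and matplotlib 3.10.9 were used.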

Additional observations from a re-analysis of the deposited data

Results flagged for a closer look

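For 8 genes, the stiff over soft difference among gated cells went one way in young and the other way in aged cells, by at least 1.5-fold each (log2 ratios, young then aged). With 1 library per group the opposite directions were not tested. Acta1 stood at −1.32 and 2.92, 4.25 apart, Mylpf at −0.74 and 1.90, 2.65 apart, and Tnnc1 at −0.63 and 0.77, 1.40 apart. These are sarcomere genes, and some values of Mylpf fall between whole counts, which leaves it uncertain. Without the highest 5% of cells Acta1 stood at −0.58 and 0.91, Mylpf at −0.25 and 0.74, and Tnnc1 at −0.55 and −0.13.

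Hist1h2ap stood at −1.74 and 2.29, 4.02 apart, and Hist1h2ae at −1.16 and 0.72, 1.88 apart. These replication histone genes share 93.4% and 58.4% of their 30-base words with other genes, so their counts are uncertain. The medians of Hist1h2ap over gated cells were 1022, 233, 94.1 and 1672 CPM. Gm10076 stood at −0.70 and 0.97, 1.67 apart, Gstp1 at −0.81 and 0.82, 1.62 apart, and Usp50 at −0.68 and 0.60, 1.27 apart. The shares of 30-base words shared with other genes are 85.4% for Gm10076, 42.4% for Gstp1 and 20.6% for Usp50.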

How the results depend on the processing

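No paired analysis was possible because each group is 1 library. A stricter gate held 12.6% and 12.8% of young soft and stiff cells, and a looser one 20.5%, 18.4%, 6.90% and 5.06% of the 4 libraries. Genes higher than in other cells numbered 346 with a pseudocount of 20 and 372 with a minimum of 50 CPM; leaving out 1 library gave 586 to 673 higher and 389 to 398 lower, and 398 to 426 higher and 35 to 40 lower than Pax7 cells. Genes lower than Pax7 cells numbered 11 with a pseudocount of 20. For young stiff over soft, a minimum of 20 CPM gave 1 higher and 7 lower, and a stricter gate 11 lower. For aged stiff over soft, 1 was lower with a pseudocount of 20, a minimum of 100 CPM, median-of-ratios scaling or a looser gate; a minimum of 20 CPM gave 41 higher and 6 lower, a looser gate 12 higher, and leaving out the highest 5% of cells 6 higher. For aged over young on soft, a pseudocount of 20 gave 21 higher and 12 lower, a minimum of 20 CPM 54 and 54, a minimum of 100 CPM 20 higher, and leaving out the highest 5% of cells 13 lower. On stiff, a pseudocount of 20 gave 6 lower and a minimum of 20 CPM 62 and 33. Leaving out the highest 5% of cells, chosen after seeing the data, reversed Cdkn1c in aged stiff over soft (0.48 from −1.86, where 3 aged soft cells held 94.2% of its UMIs) and, in aged over young on soft, Acta1 (0.23 from −2.29) and Tnnc2 (0.24 from −1.68). A minimum or trim changes which genes or cells enter; for other settings the cause was not tested. With 67 gated cells in each aged library, the upper bound of a count ratio lay a median of 17.0% to 23.4% above its value in comparisons with them, against 9.48% for the young pair.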
